A study of Mus musculus with 15 samples.

Results

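Testes that received virus against the M5 muscarinic receptor (labelled M5) were compared directly with testes that received virus against the M3 receptor (labelled M3). Both groups were injected with knockdown virus, so the comparison asked which transcripts separate the knockdown of one receptor from that of another without the vector control between them. The members were chosen by their labels: 3 M5 and 3 M3 libraries, 6 of the 15 libraries in the series, and 14514 of 23510 gene IDs had a mean of 1 FPKM or more over the 15 libraries and were tested. FPKM counts the fragments of a gene relative to its transcript length and to all fragments mapped in that library. The other 9 libraries are 3 of Con, labelled control, 3 of MNC, the vector control of the lentivirus, and 3 of M1 knockdown. All mice were males of the outbred ICR stock. Per the study's methods, mice of the knockdown and vector control groups were injected at 5 weeks of age, the knockdown groups with a mix of 3 short hairpin RNA viruses per receptor, and the testes were taken 10 days later. The methods describe no injection of Con. The virus carried no cell type restriction that the methods describe, and 1 testis of a mouse gave the RNA. The labels do not say that replicates came from separate mice, so p-values measure the spread between these samples.

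Muscarinic receptors are G protein-coupled receptors for acetylcholine. M1, M3 and M5 signal through the Gq family of G proteins to phospholipase C and calcium, whereas M2 and M4 signal through Gi. In the testis, germ cells develop inside tubules supported by Sertoli cells, while Leydig cells, macrophages, vessels and fibroblasts lie between the tubules.

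The library of M3 replicate 3 stood apart from its group, so the counts, called genes and list medians are given with and without it. Across the genes tested, its log2 values correlated with M3 replicates 1 and 2 at Pearson r of 0.977 and 0.979 and with the 3 M5 libraries at 0.97 to 0.984, while M3 replicates 1 and 2 correlated at 0.987. Genes are not independent replicates, so these correlations are descriptions. M5 replicate 3 was the M5 library farthest from the others, at 0.971 and 0.982. Steps between low values gave the 6 libraries relative depths of 0.992 to 1.017, so the libraries were of like depth, although the absolute depth is unknown. Their summed FPKM ranged from 496090 to 513817, which does not bear on depth, because FPKM is already scaled to the fragments of each library. Which M5 column is replicate 1 and which is replicate 2 rests on the titles, because the description of the latter gives the name of the former. The tissue label fitted its markers: elongating spermatid genes summed to 30000 to 40800 FPKM, Sertoli cell genes to 973 to 1500 and Leydig cell genes to 808 to 3580 in the 6 libraries.

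The targeted genes were examined first. Chrm5, which encodes M5, was at 0.37, 0.22 and 0.37 FPKM in M5 against 0.28, 0.21 and 0.2 in M3. Its values overlapped, and the mean was 0.32 ± 0.0866 (SD, n = 3) in M5 and 0.23 ± 0.0436 in M3 (exact permutation test, two-sided, p = 0.2, and 0.4 without M3 replicate 3). Chrm3, which encodes M3, was at 0.02, 0.09 and 0.04 FPKM in M5 against 0.08, 0.04 and 0.11 in M3 (exact permutation p = 0.5, n = 3 each, and 1.0 without M3 replicate 3). Chrm1, which encodes M1 and was targeted in neither group, was at 0.06, 0.16 and 0.17 FPKM in M5 against 0.13, 0.17 and 0.07 in M3. With 3 libraries a group the exact test cannot go below 0.1, and over the 5 receptor genes no adjusted p was under 0.25. The 2 targeted transcripts were therefore too low to check the labels, and M5 and M3 below mean the libraries so labelled. Neither targeted transcript was lower in the group labelled with its own receptor: the mean of Chrm5 was higher in M5 than in M3, and that of Chrm3 was 0.0767 ± 0.0351 in M3 and 0.05 ± 0.0361 in M5.

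The receptor gene with the highest level was Chrm4, which encodes the Gi-coupled receptor M4. It was at 2.24, 2.05 and 2.29 FPKM in M5 against 3.97, 4.06 and 2.67 in M3. All M5 values lay below all M3 values. Both M5 and M3 replicate 3 lay below the 2.75 to 5.1 FPKM of the 9 libraries of Con, MNC and M1. M3 replicate 3, at 2.67 FPKM, was nearer to M5 than to M3 replicates 1 and 2. The difference was -0.50 ± 0.152 (SE) on log2(FPKM + 1), the scale of all differences below, and did not pass the test across all genes (limma, adjusted p = 0.338, and 0.0713 without M3 replicate 3). Chrm2 was at 0.06 FPKM or below in each of the 6 libraries.

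Across the transcriptome, limma called 2 of 14514 genes (0.0138%) at a Benjamini-Hochberg adjusted p under 0.05, both higher in M5. At an unadjusted p under 0.05 there were 1274 genes higher (8.78%) and 803 lower (5.53%) in M5. In 2092 genes (14.4%) every M5 value lay above every M3 value, and in 1236 (8.52%) every M5 value lay below. In all, 61.3% of genes had a higher mean in M5. The median difference of all genes was 0.06 with and without M3 replicate 3, 0.02 without M5 replicate 3, and -0.05 after centring each library on its median. Without M3 replicate 3 the call count was 188 (1.3%), of which 110 were higher (0.758%) and 78 lower (0.537%) in M5, and 1628 genes higher (11.2%) and 1313 lower (9.05%) had an unadjusted p under 0.05. Both genes called with all 6 libraries were among the 188, and 71 of the 188 differed by 1 log2 unit or more. All 188 differences had the same sign with M3 replicate 3 included, and 152 then had an unadjusted p under 0.05. That fit holds all the libraries that chose these genes, so this agreement was largely built in.

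**Figure D1:**
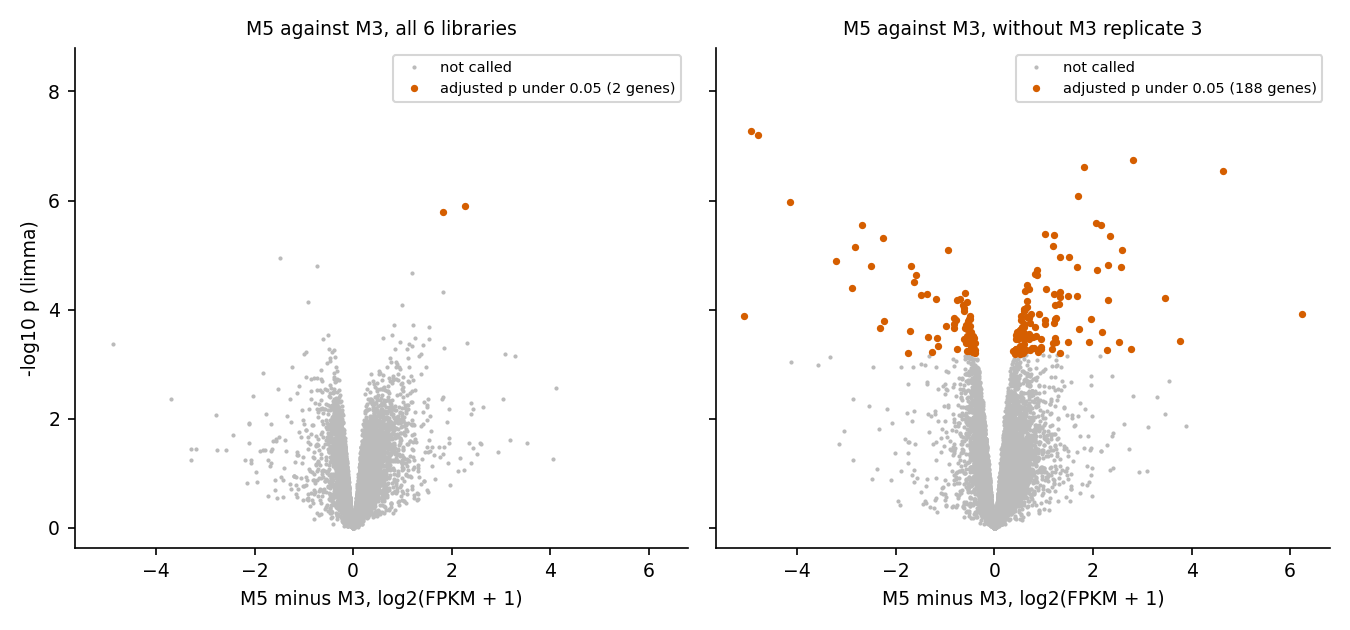
Each point is 1 of 14514 genes, with the M5 minus M3 difference in log2(FPKM + 1) on the x axis and -log10 of the limma p on the y axis. With all 6 libraries (left) 2 genes pass the adjusted threshold, and without M3 replicate 3 (right) 188 pass on both sides of 0.

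With all 6 libraries, Cd5l was the only called gene with a symbol. It encodes a secreted protein made mainly by tissue macrophages, and lies on chromosome 3 from 87357881 to 87371074 (GRCm38). It was at 3.56, 4.89 and 4.87 FPKM in M5 against 0.12, 0.06 and 0.2 in M3. The 3 M3 libraries lay together, M3 replicate 3 included, and were the ones apart from the series: Cd5l was at 0.63 to 3.67 FPKM in Con, 3.96 to 4.88 in MNC and 2.55 to 4.22 in M1. The M5 minus M3 difference was 2.26 ± 0.143 (SE, adjusted p = 0.0119), and 2.31 (adjusted p = 0.00916) without M3 replicate 3. Its adjusted p ranged from 0.00321 to 0.128 over the alternatives, and 9 of 15 kept the call. It was 0.128 without M5 replicate 3, 0.091 without M5 replicate 2 and 0.0646 without M3 replicate 2. In bulk tissue, fewer cells of a type and less RNA per cell cannot be told apart.

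The other called ID, BGI_novel_G001799, has no name in the table. It was at 48.94, 53.81 and 50.34 FPKM in M5 against 14.59, 15.36 and 11.2 in M3, a difference of 1.83 ± 0.12 (SE, limma adjusted p = 0.0119). M1 lay near M3, at 8.69 to 24.46 FPKM, while Con was at 38.08 to 46.87 and MNC at 26.39 to 46.5. The adjusted p was 0.00203 without M3 replicate 3, and reached 0.0646 without M3 replicate 2, 0.091 without M5 replicate 2 and 0.128 without M5 replicate 3.

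Next by p came genes in which M3 replicate 3 likewise lay with M3. They missed the threshold with all 6 libraries and, except for Gm6866, were called without that library. Arfgef3, named for its similarity to exchange factors of the ARF family of GTPases, was at 1.31, 1.07 and 1.16 FPKM in M5 against 5.62, 5.43 and 4.25 in M3 (difference -1.48 ± 0.13, limma adjusted p = 0.0549, and 0.0109 without M3 replicate 3). Every other library, at 1.45 to 4.03 FPKM, lay between the 2 groups. Irak1bp1, which encodes a protein that binds the kinase IRAK1, was at 17.68, 18.11 and 17.82 FPKM in M5 against 29.52, 29.33 and 31.96 in M3 (difference -0.73, limma adjusted p = 0.0581, and 0.0192 without that library). M5 was the group apart there, since the other 9 libraries were at 20.2 to 32.19 FPKM.

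Plekha4, a gene for a protein with a lipid-binding pleckstrin homology domain, was at 2.07, 1.86 and 2.41 FPKM in M5 against 0.32, 0.37 and 0.36 in M3, and the other libraries spread from 0.53 to 4.17 (limma adjusted p = 0.0618, and 0.0312 without M3 replicate 3). Sult2b1, a sulfotransferase for cholesterol and other steroids, was at 2.35, 2.45 and 2.49 FPKM in M5 against 5.96, 5.56 and 4.9 in M3 (limma adjusted p = 0.149, and 0.0323 without that library). The M1 libraries alone ranged from 0.73 to 6.08 FPKM in Sult2b1, so its level varied as much inside 1 group as between M5 and M3. Gng10, the gene of a G protein gamma subunit, was at 37.07, 33.26 and 30.53 FPKM in M5 against 15.03, 19.11 and 14.94 in M3. The other 9 libraries, at 22.67 to 30.35 FPKM, lay between the groups (difference 1.00, limma adjusted p = 0.149, and 0.047 without M3 replicate 3).

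Ifi27l2a, an interferon-induced gene, was at 12.59, 17.88 and 21.07 FPKM in M5 against 3.43, 3.75 and 4.94 in M3. The difference was 1.83 ± 0.201 (limma adjusted p = 0.113, and 0.029 without M3 replicate 3). Con, at 3.74 to 6.11 FPKM, and M1, at 5.0 to 8.9, lay near M3, while the vector control MNC, at 9.76 to 23.06, spanned the M5 values. S100a4, a calcium-binding protein of fibroblasts and white blood cells, was at 10.94, 14.25 and 16.63 FPKM in M5 against 2.95, 4.08 and 5.43 in M3 (limma adjusted p = 0.271, and 0.0342 without M3 replicate 3). It was at 0.55 to 1.15 FPKM in Con, 2.31 to 6.29 in MNC and 2.1 to 8.61 in M1, so M5 lay above every other library. Gm7970 (0.83, adjusted p = 0.271) and Gm6866 (1.21, adjusted p = 0.271) completed the 10 named genes with the lowest p in limma. Without M3 replicate 3 their adjusted p was 0.0479 and 0.0623. Predicted genes of this kind often have near-identical copies, and their values are uncertain.

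**Figure D2:**
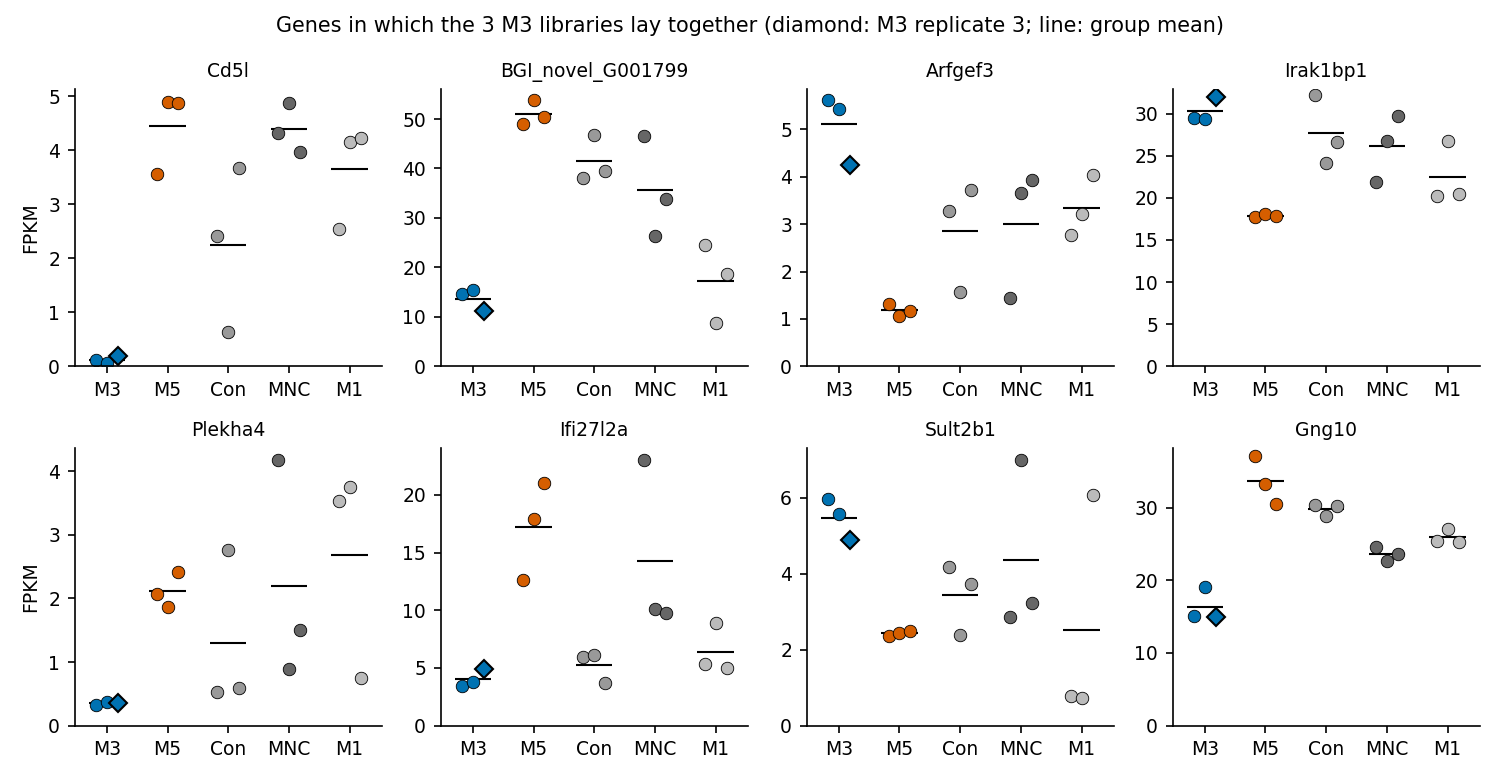
FPKM of 8 genes in each of the 15 libraries, by group, with group means as lines and M3 replicate 3 as a diamond. In each gene the 3 M3 libraries lie on the same side of all 3 M5 libraries, as in Cd5l, where M3 is at 0.06 to 0.2 FPKM and M5 at 3.56 to 4.89.

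Apart from Cd5l and Arfgef3, the largest differences were in genes that varied from library to library within M5 or M3, and these had adjusted p of 0.286 or above with all 6 libraries. H2ac23 and Rps13, also among them, are described with the genes that followed M3 replicate 3. Hbb-bs and Hbb-bt, the adult beta globin genes of red blood cells, were on the higher side, Hbb-bs with the largest difference. Hbb-bs was at 58.61, 35.71 and 105.79 FPKM in M5 against 0.18, 13.81 and 1.54 in M3 (difference 4.12 ± 0.898, limma adjusted p = 0.338, and 0.148 without M3 replicate 3). The pair is nearly identical, so the division of reads between them is uncertain. Haspin, a kinase gene of germ cells that lies inside another gene, led the lower side, at 0.76, 1.32 and 1.71 FPKM in M5 against 17.03, 83.25 and 179.32 in M3 (difference -4.87, limma adjusted p = 0.286, and 0.0572 without M3 replicate 3). Its level ran from 2.01 to 79.56 FPKM in the other 9 libraries, and that of P2rx5, an ATP-gated channel whose gene also lies on chromosome 11 (Haspin starts at 73135484 and P2rx5 at 73155389), from 0.42 to 4.5. P2rx5 was at 0.57, 0.55 and 0.41 FPKM in M5 against 1.13, 4.47 and 8.48 in M3, in the same order of M3 libraries as Haspin.

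Some other genes of this kind started near each other, which was noticed with their values seen and was not set against all genes. They did not all differ in the same direction. Pfdn6 (a prefoldin chaperone subunit), H2-Ea (a class II antigen gene annotated as a pseudogene) and Vars (valyl-tRNA synthetase) start at 33938909, 34341952 and 35000907 of chromosome 17. Pfdn6 was at 35.57, 3.43 and 5.71 FPKM in M5 against 0.22, 0.14 and 0.42 in M3, and H2-Ea was at 0.33, 0.99 and 0.42 in M5 and at 8.42, 35.28 and 2.56 in M3. Vars was at 45.08, 7.55 and 1.87 FPKM in M5 against 0.61, 1.64 and 0.24 in M3, and ranged from 1.62 to 111.28 in the vector control MNC. Adam6a and Tedc1 start at 113543908 and 113156421 of chromosome 12, and both were lower in every M5 library, with differences of -2.11 and -1.84. Klrb1 (1.85), Pga5 (2.42) and Gm10413 (2.40) on the higher side, and Coil (-2.57), Crisp1 (-2.43), Gm4184 (-2.12) and Atp6ap1l (-1.65) on the lower side, completed the group. Crisp1, an epididymal gene, was at 19.4, 5.03 and 0.68 FPKM in M3 and at most 0.15 in M5. It was also low in MNC (0.03 FPKM) and M1 (0.03 to 0.09), and at 2.86 to 32.26 in Con. Of 6 epididymal genes tested 1 was higher and 4 lower in M5, with a median of -0.08 (-0.01 without M3 replicate 3), the summed level of the 16 listed was 270 to 334 FPKM in M3 and 228 to 320 in M5, and 5 were at 0 in all 6 libraries. The part of epididymal tissue in the Crisp1 difference was not tested.

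The 188 genes called without M3 replicate 3 were next read in that library, which had not been used to choose them. On a scale where the mean of M3 replicates 1 and 2 is 0 and the mean of M5 is 1, its median position was 0.83, and it lay nearer to M5 in 165 of 188 genes (87.8%). The 9 libraries of Con, MNC and M1 had median positions of 0.05 to 0.33 and lay nearer to M5 in 7.4% to 35.1% of the genes. The 165 comprised 99 of the genes higher and 66 of those lower in M5. In 540 of the 14514 genes the M5 libraries and M3 replicate 3 all lay above the 11 other libraries of the series and in 811 all below, against 378 and 477 genes in which the M5 libraries alone lay above or below the 12 others. Whether M3 replicate 3 carries the wrong label cannot be told from the receptor transcripts.

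**Figure D3:**
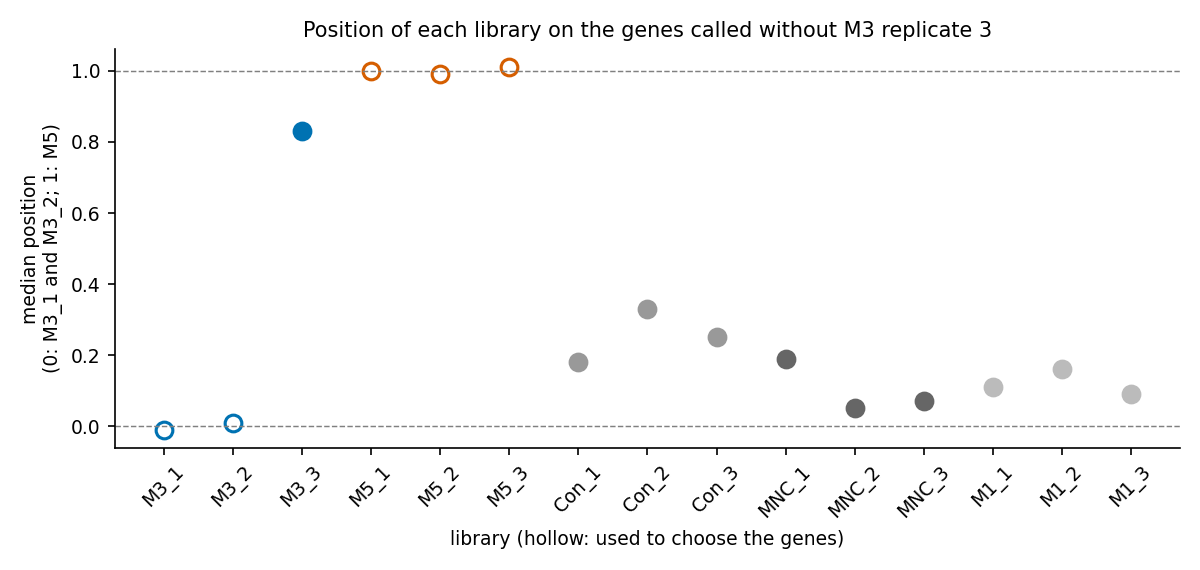
Median position of each of the 15 libraries over the 188 genes called without M3 replicate 3, where 0 is the mean of M3 replicates 1 and 2 and 1 is the mean of M5. Hollow points were used to choose the genes, and M3_3, which was not, sits at 0.83, above the 0.05 to 0.33 of the other 9 filled points.

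Several of these genes were present in M5 and M3 replicate 3 and listed at or near 0 elsewhere, or the reverse. Tmem89, a gene for a membrane protein, was at 0 FPKM in all 3 M5 libraries and in M3 replicate 3, at 31.77 and 27.32 in the other M3 libraries and at 26.4 to 47.53 in the other 9. Fabp3, a fatty acid-binding protein of muscle and heart, was at 0.84, 0 and 0 FPKM in M5, at 22.44, 72.58 and 0 in M3 and at 37.68 to 69.25 elsewhere. H2ac23, a histone H2A gene, was at 20.77, 22.65 and 28.69 FPKM in M5 against 19.06 in M3 replicate 3, and was listed at 0 in the 11 other libraries. Gstp2, a glutathione transferase with a near-identical neighbour, was at 8.07, 6.7 and 8.71 FPKM in M5 and 7.35 in M3 replicate 3, against 0.32 and 0.61 in the other M3 libraries and at most 1.16 elsewhere. In each of these genes 4 libraries formed one level and 11 the other, and the division did not follow the M3 label. With all 6 libraries their limma adjusted p lay between 0.338 and 0.351, and without M3 replicate 3 between 0.000464 (Tmem89) and 0.0287 (Fabp3).

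Kpna2 and Ranbp1, which act in nuclear import, were on the same side. Kpna2 was at 9.35, 8.82 and 9.49 FPKM in M5, at 10.42 in M3 replicate 3 and at 1.16 and 1.38 in the other M3 libraries. The vector control MNC, at 9.39 to 112.24 FPKM, was also at the level of M5 or above. Con was at 1.2 to 1.88 FPKM and M1 at 1.49 to 2.09. Ranbp1 was at 27.11, 26.3 and 47.29 FPKM in M5, at 29.26 in M3 replicate 3 and at 6.63 and 6.1 in the other M3 libraries. Without M3 replicate 3, 1700001F09Rik (2.05), Gm35134 (2.08) and Gm21642 (2.76) were also among the genes most raised, and Gm4184 (-2.90), Rpl37rt (-2.23), Tmsb15b1 (-1.75), Gm21409 (-1.64), Gm40365 (-1.50), Gstt2 (-1.36) and Gm21678 (-1.14) among those most lowered. Several of them belong to multicopy families on the Y chromosome or elsewhere, and their values are uncertain. The called IDs without a symbol included BGI_novel_G000321 (1.93) on the higher side and BGI_novel_G000669 (-1.35) and BGI_novel_G002016 (-0.82) on the lower side.

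**Figure D4:**
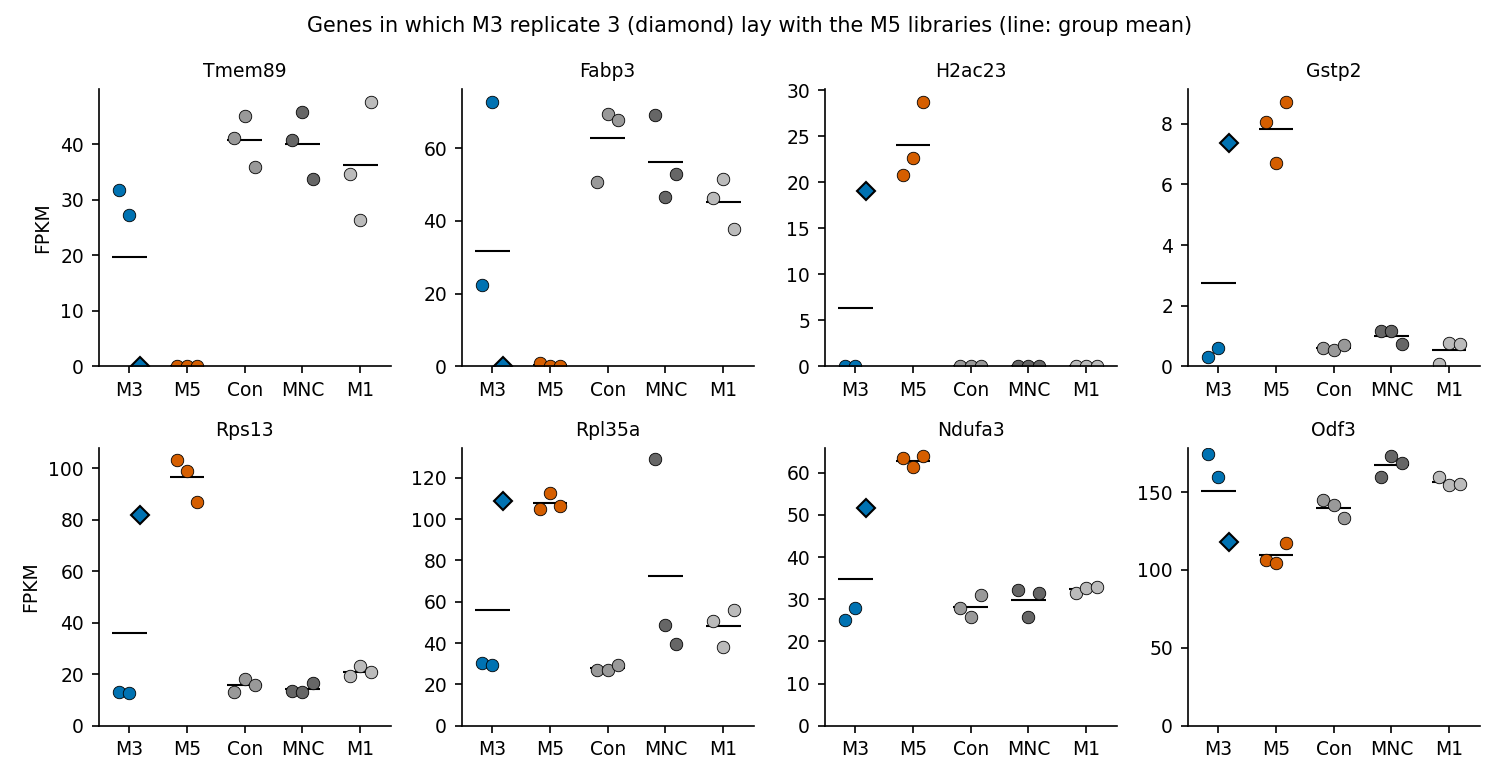
FPKM of 8 genes in each of the 15 libraries, by group, with group means as lines and M3 replicate 3 as a diamond. M3 replicate 3 lies with the 3 M5 libraries and away from M3 replicates 1 and 2, as in Tmem89 (0 FPKM against 27.32 and 31.77) and Rps13 (81.75 FPKM against 12.71 and 13.2).

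Genes of the protein synthesis and respiration machinery were among the 110 called higher without M3 replicate 3. Of 79 cytosolic ribosomal protein genes 13 were called higher and 0 lower, against 0.758% and 0.537% of all genes, and their median difference was 0.25, against 0.06 for all genes. Rps13 was at 103.34, 99.13 and 87.14 FPKM in M5, at 13.2 and 12.71 in M3 replicates 1 and 2, at 81.75 in M3 replicate 3 and at 12.99 to 23.04 in the other 9 libraries. Rpl35a was at 104.8, 112.71 and 106.27 FPKM in M5 against 30.19, 29.28 and 108.58 in M3. Unlike Rps13, it was also high in part of the vector control MNC, at 39.49 to 129.13 FPKM, with 26.84 to 29.21 in Con and 38.1 to 55.9 in M1. The 11 others (Rpl9, Rpl21, Rpl22, Rpl23, Rpl38, Rpl41, Rps15a, Rps21, Rps26, Rps27a and Rps29) had differences of 0.38 to 1.02. Many ribosomal protein genes have near-identical pseudogene copies, so how reads were divided is uncertain. Of the members of highest level, Rplp0 and Rpl32 differed by 0.07 and 0.20 with all 6 libraries and overlapped between the groups. With all 6 libraries none of the 79 was called, 26 had an unadjusted p under 0.05 and a higher level in M5, and 0 a lower level, with a median of 0.20. The summed level of the list was 17100, 17000 and 18300 FPKM in M5, 14700 and 14900 in M3 replicates 1 and 2, and 16600 in M3 replicate 3.

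Of 73 nuclear genes of the respiratory chain, against 0.758% higher and 0.537% lower of all genes, 4 were called higher without M3 replicate 3 (Ndufa3 of complex I, Uqcrb of complex III, and Cox5b and Cox6c of complex IV) and 1 lower (Ndufc1 of complex I). Ndufa3 was at 63.45, 61.28 and 63.88 FPKM in M5, at 25.13 and 27.84 in M3 replicates 1 and 2 and at 51.73 in M3 replicate 3. Ndufc1 was at 164.36, 159.27 and 160.13 FPKM in M5 against 248.39, 227.21 and 148.8 in M3. Of 35 proteasome genes Psma4 and Psmd12 were called higher (0.758% of all genes), with differences of 0.57 and 0.49. The median differences of the respiratory chain and proteasome lists were 0.16 and 0.21, and 0.13 and 0.14 with all 6 libraries, in which no member was called. Of 14 replication-dependent histone genes tested, H2ac23 and H2bc4 were called higher without M3 replicate 3 (0.758% of all genes), with a list median of 0.02, and with all 6 libraries 2 were higher and 4 lower at an unadjusted p under 0.05 (8.78% and 5.53% of all genes), among them H2ac18 (-0.62). Most histone messages lack a poly(A) tail. No mitochondrially encoded gene of the list matched the table.

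GC content and transcript length were known for 78.2% of the genes called higher without M3 replicate 3 and 74.4% of those called lower, both under 80%, so a check of them over the called genes is void. Among those with a value the median GC content was 45.7% and 55.7%, against 50.4% for all genes tested, and the median transcript length 730 and 1258 bases, against 1373. The part of GC content and length in the ribosomal and respiratory chain calls was not tested. Over the 13364 genes with a known GC content, the difference correlated with it at a Spearman rho of -0.286 without M3 replicate 3 and -0.231 with all 6 libraries, as a description across genes. This trend was then removed in a fit that leaves out genes without a GC value. It kept 86 of the 110 genes called higher and 58 of the 78 called lower. There, 37 of the 188 genes were still called, and these were all the calls, 28 of them higher in M5 (75.7%, against 58.5% before). Quantile normalization called 267 genes, 44.9% of them higher, and without the filter on low levels 102 were called, 47.1% of them higher.

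Genes of the immune cells between the tubules had higher median levels in M5, with no member called except Cd5l. The examples are the members with the highest levels in the 6 libraries, and a member named for another reason is marked as picked with its values seen. Of 16 macrophage genes tested 15 were higher in M5, 13 of them at an unadjusted p under 0.05 (8.78% of all genes) and 14 with no overlap between the groups (14.4% of all genes), and the median difference was 0.84. Without M3 replicate 3, 8 had an unadjusted p under 0.05 and a higher level (11.2% of all genes). Lyz2, the lysozyme of myeloid cells, was at 52.96, 66.81 and 156.19 FPKM in M5 against 30.5, 37.46 and 35.26 in M3. C1qa, a subunit of complement C1q, was at 19.12, 25.72 and 55.3 FPKM in M5 against 13.53, 17.05 and 16.48 in M3. Fcgr3, an antibody receptor, was at 26.82, 34.9 and 36.19 FPKM in M5 against 9.71, 20.95 and 10.65 in M3 (difference 1.25). Aif1 had the highest level of the list and differed by -0.05, with 285.62 to 357.65 FPKM in M5. M5 replicate 3 was the highest library of the 6 in Lyz2, C1qa and Fcgr3, and without it the macrophage median was 0.49. Without M3 replicate 3, which here lay with M3, the median was again 0.84.

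The summed level of the 18 listed macrophage genes was 536, 587 and 729 FPKM in M5 and 446, 479 and 475 in M3. It was 336 to 366 in Con, 474 to 559 in MNC and 449 to 567 in M1, so that M5 replicate 1 lay within the MNC and M1 range, the other M5 libraries above it and M3 replicate 1 just below it. Aif1, which differed little between M5 and M3, made up a large part of the sum in M5. Of the 7 resident macrophage genes tested, 5 had an unadjusted p under 0.05 and all of those were higher in M5 (8.78% of all genes), and the list median was 0.60. With M3 replicate 3 omitted, there were 3 (11.2% of all genes) and the median was 0.66. Nr1h3, a nuclear receptor that activates Cd5l in macrophages, differed by 0.00. Hmox1, which breaks down heme, was at 7.73, 6.63 and 10.25 FPKM in M5 against 3.63, 6.2 and 4.29 in M3, and Folr2 had a difference of 0.60. The largest difference of this list after that of Cd5l was 0.75.

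Of 11 lymphocyte and granulocyte genes 6 had an unadjusted p under 0.05, all higher in M5 (8.78% of all genes), and the median was 0.88. When M3 replicate 3 was left out, there were again 6 (11.2% of all genes), with a median of 0.80. Ptprc, found on all white blood cells, was at 3.3, 4.14 and 5.16 FPKM in M5 against 1.57, 2.16 and 1.34 in M3, with a mean of 0.617 in Con, and Coro1a, an actin-binding protein of the same cells, had a difference of 1.00. Cd52 (0.48) and Cd3d (-0.05), the other members of highest level, overlapped between the groups. Of 16 class I antigen presentation genes 11 had an unadjusted p under 0.05 and all 11 were higher in M5 (8.78% of all genes), and the median was 0.78. With M3 replicate 3 omitted, the 11 became 5 (11.2% of all genes), with a median of 0.77. H2-D1 was at 81.86, 124.3 and 129.95 FPKM in M5 against 41.12, 54.38 and 47.53 in M3 (difference 1.20, limma adjusted p = 0.286), and B2m, the light chain of class I molecules, at 193.61, 221.62 and 270.59 in M5 and at 117.73, 192.61 and 106.24 in M3. H2-K1 (1.19) and Tapbp (0.19) overlapped. Genes of the H2 family share sequence, so single members are uncertain. Of 6 class II genes 3 had an unadjusted p under 0.05, all higher in M5 (8.78% of all genes), and the median was 0.62. When M3 replicate 3 was left out, there were again 3, with a median of 0.68. Cd74, the invariant chain, was at 94.7, 125.23 and 171.49 FPKM in M5 against 45.17, 86.97 and 54.17 in M3, and Ctss, H2-Aa and H2-Ab1 had differences of 1.25, 0.26 and 0.85.

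All 20 interferon response genes tested had a higher mean in M5 (61.3% of all genes), 10 of them at an unadjusted p under 0.05 (8.78%) and 9 without overlap (14.4%), with a median of 0.66, and none was called. With M3 replicate 3 omitted, 7 had an unadjusted p under 0.05 and a higher level (11.2% of all genes). Ifitm3, a membrane protein that restricts the entry of viruses, was at 24.54, 38.7 and 65.58 FPKM in M5 against 15.21, 21.5 and 20.62 in M3 (difference 1.03, limma adjusted p = 0.338). Eif2ak2, a kinase that senses double-stranded RNA, had a difference of 0.17. The summed level of the 26 genes in the table was 97.1, 159 and 260 FPKM in M5, 67.8, 104 and 89 in M3 and 107 to 184 in the vector control MNC, so M5 replicate 1 lay inside the M3 range and M5 replicate 3 above every other library of the series. Without M5 replicate 3 the list median was 0.46, and 0.64 without M3 replicate 3.

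Interferon signalling ends at a DNA element that transcription factors of the response bind, in which the letters GAAA recur after 2 bases of any kind. In RefSeq promoters of GRCm38.p6, 15 of the 20 genes had an entry, and 7 of these 15 (46.7%) held this pattern on either strand in the 250 bases before the gene start, against 2.98% of 32851 promoters. A match is a description and not a binding site. The sequences below, 80 bases each on the strand of the gene, are those of the 5 genes with a match and an unadjusted p under 0.05, with the matched bases in capitals (TTTC repeated in the same way is the element on the opposite strand, and overlapping matches run together).
Isg15, chr4:156200840-156200919, minus strand: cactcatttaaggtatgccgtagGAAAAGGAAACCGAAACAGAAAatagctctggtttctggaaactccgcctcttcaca
Ifit3, chr19:34583372-34583451, plus strand: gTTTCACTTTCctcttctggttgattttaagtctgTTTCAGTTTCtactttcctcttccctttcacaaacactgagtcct
Bst2, chr8:71537552-71537631, minus strand: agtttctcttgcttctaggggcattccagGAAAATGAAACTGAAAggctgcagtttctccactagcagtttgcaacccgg
Oas1a, chr5:120907526-120907605, minus strand: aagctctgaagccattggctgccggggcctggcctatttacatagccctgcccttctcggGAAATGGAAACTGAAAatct
Stat2, chr10:128270248-128270327, plus strand: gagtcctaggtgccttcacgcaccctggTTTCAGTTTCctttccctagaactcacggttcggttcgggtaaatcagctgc

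These 5 were picked with their values seen. Ifit3 (2.81, 4.77 and 7.46 FPKM in M5, and 1.38, 2.46 and 1.92 in M3), Oas1a and Stat2 separated the groups, with differences of 0.98, 0.69 and 0.73. Isg15 and Bst2 overlapped, since M5 replicate 1 (2.07 and 9.82 FPKM) lay below M3 replicate 2 (2.27 and 11.81 FPKM).

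Markers of red blood cells, fat and connective tissue also had medians above that of all genes. Of 7 red blood cell genes 5 had an unadjusted p under 0.05, all higher in M5 (8.78% of all genes), and the median was 1.53. It was 1.98 without M3 replicate 3, again with 5 genes, and 1.03 without M5 replicate 3. Their summed level was 224, 206 and 545 FPKM in M5, 79.9, 122 and 158 in M3 and 76.5 to 136 in the other 9 libraries. The part of blood in the immune genes, many of which are also expressed in blood cells, was not tested. Of 13 adipocyte genes 8 were higher and 2 lower at an unadjusted p under 0.05 (8.78% and 5.53% of all genes), with a median of 0.70. When M3 replicate 3 was left out, 7 were higher and 2 lower, with a median of 0.81. The summed level of the 16 listed genes was 238, 256 and 225 FPKM in M5 and 234, 251 and 223 in M3, so it did not separate the groups, since Lipe and Pnpla2 made up most of it. The fat cell genes described first were picked with their values seen. Fabp4, a fatty acid carrier, was at 13.97, 18.01 and 8.97 FPKM in M5 against 1.78, 3.75 and 3.67 in M3, with group means of 8.61 to 12.8 elsewhere, and Car3, Cfd and Lpl had differences of 1.49, 1.39 and 1.12. M3 was again the lower group in Fabp4 relative to the whole series. Pnpla2, the triglyceride lipase, was called lower without M3 replicate 3 (0.537% of all genes, difference -0.40, limma adjusted p = 0.0424). It was at 82.32, 82.11 and 82.68 FPKM in M5 against 110.84, 106.95 and 90.4 in M3. Lipe, the hormone-sensitive lipase, also had a lower level in M5 (difference -0.20, overlapping), while Adipoq and Cd36 had differences of 0.46 and 0.52 and overlapped.

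Of 23 genes for collagen, laminin and other matrix all had a higher mean in M5 (61.3% of all genes), 10 had an unadjusted p under 0.05 (8.78%), and the median was 0.44. With M3 replicate 3 omitted, the 10 became 3 (11.2% of all genes). Col1a2, a fibrillar collagen of fibroblasts, was at 26.42, 21.05 and 42.16 FPKM in M5 against 7.36, 18.05 and 13.17 in M3 (difference 1.18), and the matrix proteins Dcn, Bgn and Sparc had differences of 0.67, 0.80 and 0.43, Sparc with overlap. M3 replicate 1 was the lowest and M5 replicate 3 the highest of the 6 in Col1a2, and the list median was 0.27 without M5 replicate 3 and 0.53 without M3 replicate 3. Peritubular myoid and smooth muscle genes, with a median of 0.27, and endothelial genes, with 0.20, had medians closer to that of all genes. At an unadjusted p under 0.05, 2 of 11 and 0 of 10 of them were higher in M5 (8.78% of all genes). Their medians were 0.24 and 0.17 without M3 replicate 3, and 0.13 and 0.07 without M5 replicate 3.

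Of 16 Leydig cell genes 15 had a higher mean in M5 (61.3% of all genes) with a median of 0.55, and 1 had an unadjusted p under 0.05 (8.78%). In 4 every M5 value lay above every M3 value (14.4% of all genes), and in the other 12 the groups overlapped. When M3 replicate 3 was left out, the median was 0.77 and 5 genes had an unadjusted p under 0.05 and a higher level (11.2% of all genes). Cyp17a1, which makes androgen precursors, was at 273.44, 174.29 and 317.47 FPKM in M5 against 53.73, 159.34 and 140.34 in M3 (difference 1.21, limma adjusted p = 0.338). Insl3, a hormone of Leydig cells, was at 1275.46, 1116.52 and 2381.96 FPKM in M5 against 488.16, 1139.74 and 1382.55 in M3. Cyp11a1 and Akr1cl had differences of 1.00 and 0.77. M3 replicate 1 was the lowest of the 6 in all 4 genes. Without M3 replicate 1 the list median was 0.19, and it was 0.37 without M5 replicate 3. Cholesterol synthesis genes had a median of 0.21, with 3 of 20 higher and 1 lower at an unadjusted p under 0.05 (8.78% and 5.53% of all genes). It was 0.20 without M3 replicate 3, with 0 higher and 2 lower, and 0.11 without M5 replicate 3.

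**Figure D5:**
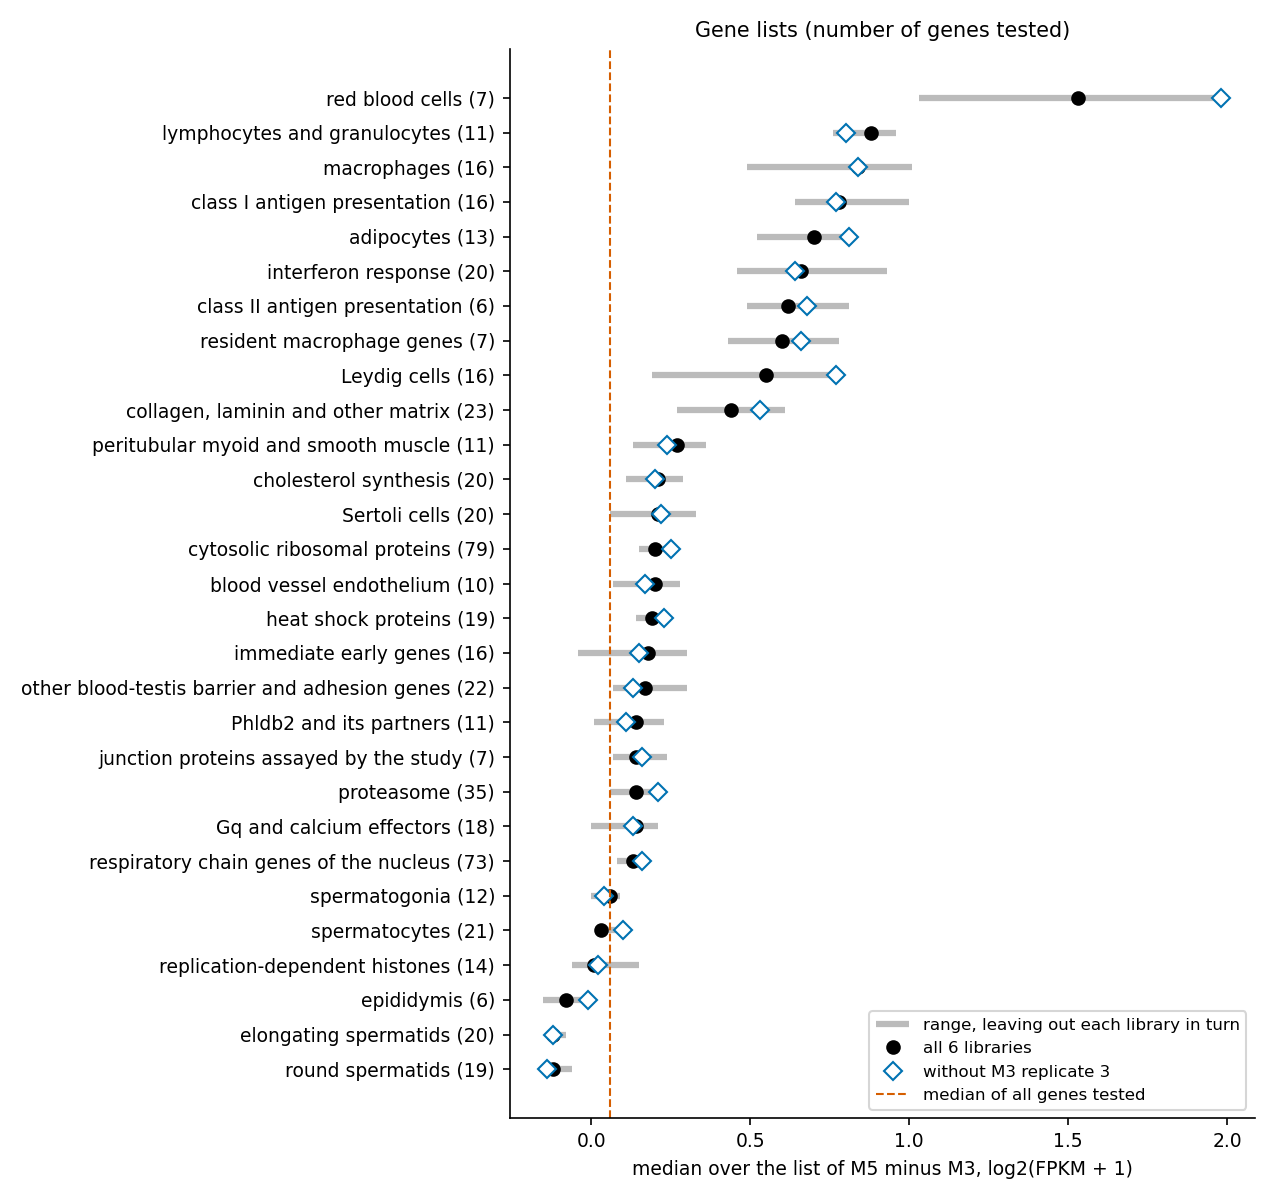
Median over each gene list of the M5 minus M3 difference in log2(FPKM + 1), for the lists with 5 or more genes tested, with the number of genes in brackets. Filled points use all 6 libraries, open diamonds leave out M3 replicate 3, grey bars span the medians when each library is left out in turn, and the dashed line is the median of all genes (0.06). Blood, immune and adipocyte lists lie to the right, and spermatid lists to the left at -0.12.

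Germ cell lists had medians nearer to that of all genes. Spermatid genes had medians below that of all genes: of 19 round spermatid genes 15 were lower in M5 (3 at an unadjusted p under 0.05, against 5.53% of all genes) and of 20 elongating spermatid genes 13 were lower (5 at an unadjusted p under 0.05), each with a median of -0.12. With M3 replicate 3 omitted, the medians were -0.14 and -0.12, and 7 and 5 were lower at an unadjusted p under 0.05 (9.05% of all genes), with 0 and 3 higher. Odf3, a protein of the sperm tail, was the only member called lower without M3 replicate 3 (0.537% of all genes, difference -0.61, limma adjusted p = 0.0389). It was at 106.58, 104.6 and 117.26 FPKM in M5, at 174.7 and 159.94 in M3 replicates 1 and 2 and at 117.91 in M3 replicate 3. Of the round spermatid genes of highest level, Crisp2, Tssk1 and Zpbp2 overlapped (differences 0.04, -0.12 and -0.13), and Tssk2, a kinase of spermatids, did not (-0.16). The protamine and transition protein genes, which package sperm DNA, differed in sign among themselves. Prm1 and Prm2 had differences of 0.20 and 0.27 and overlapped between the groups, Tnp1 differed by 0.11 and Tnp2 by -0.40. Prm2 was at 5832.49 and 6146.32 FPKM in M3 replicates 1 and 2, at 9230.89 in M3 replicate 3 and at 6928.8 to 9811.1 in M5.

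Of 21 spermatocyte genes, Hormad1, a protein of meiotic chromosome axes, was called higher without M3 replicate 3 (0.758% of all genes, difference 0.62, limma adjusted p = 0.0383). It was at 102.18, 91.32 and 95.05 FPKM in M5, at 65.4 and 59.42 in M3 replicates 1 and 2 and at 85.02 in M3 replicate 3. Sycp3, another protein of these axes, was at 160.34, 155.21 and 149.46 FPKM in M5 against 132.38, 135.8 and 147.35 in M3. Syce1, Syce2 and Piwil1 had differences of 0.03, -0.08 and -0.18, and the list median was 0.03, or 0.10 without M3 replicate 3. At an unadjusted p under 0.05, 3 were higher and 0 lower in M5 (8.78% and 5.53% of all genes). Without M3 replicate 3, 4 were higher and 2 lower (11.2% and 9.05% of all genes). Of 12 spermatogonia genes 1 had an unadjusted p under 0.05, Dmrtb1, which was lower in M5 (5.53% of all genes). It was at 280.24, 269.23 and 231.46 FPKM in M5 against 373.97, 353 and 299.06 in M3 (difference -0.39, limma adjusted p = 0.338). The median of the spermatogonia list was 0.06, or 0.04 without M3 replicate 3. The 4 spermatogenesis genes whose proteins the study assayed (Crem, Fscn1, Pgk2 and Tnp1) had differences of -0.09 to 0.11, and the groups overlapped in all 4.

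Sertoli cell genes had a median of 0.21, with 19 of 20 having a higher mean in M5 (61.3% of all genes) and 2 at an unadjusted p under 0.05 (8.78%), near the share of all genes. Clu, Ctsl, Cst12 and Cst9, its members of highest level, overlapped (0.07, 0.31, 0.21 and 0.01). The 7 tested genes of the junction proteins the study assayed differed by 0.02 to 0.30 with a median of 0.14, none at an unadjusted p under 0.05. Tjp1, a scaffold of tight junctions, was at 22.6, 21.73 and 23.43 FPKM in M5 against 20.14, 19.97 and 21.21 in M3, and Cldn11, the main claudin of the blood-testis barrier, at 41.78, 48.65 and 73.49 in M5 and at 42.16, 46.68 and 40.47 in M3. Of 22 other barrier and adhesion genes 4 were higher at an unadjusted p under 0.05 (8.78% of all genes), with a median of 0.17, and 2 were higher and 1 lower without M3 replicate 3. Vim, the intermediate filament of Sertoli and other cells, was at 53.96, 62.77 and 102.99 FPKM in M5 against 36.8, 43.49 and 42.3 in M3, and Nectin3, Ctnnb1 and Plec had differences of -0.08, 0.28 and -0.09. Phldb2 and its partners had a median of 0.14 over 11 genes. The medians of the Sertoli, assayed junction, other barrier and Phldb2 lists were 0.06, 0.07, 0.07 and 0.01 without M5 replicate 3, when that of all genes was 0.02, and 0.22, 0.16, 0.13 and 0.11 without M3 replicate 3.

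Of 18 genes for Gq proteins and calcium effectors, through which M3 and M5 signal, 12 had a higher mean in M5, close to the 61.3% of all genes, with a median of 0.14. The median was 0.13 without M3 replicate 3 and 0.00 without M5 replicate 3. Itpr3, an inositol trisphosphate receptor that releases calcium from stores, was called lower without M3 replicate 3 (0.537% of all genes, difference -0.83, limma adjusted p = 0.0334). It was at 9.38, 10.64 and 9.34 FPKM in M5, at 17.4 and 18.8 in M3 replicates 1 and 2 and at 11.32 in M3 replicate 3. Con was at a mean of 9.32 FPKM, like M5, and MNC and M1 were at 18.2 and 18.9, like the first M3 libraries. Prkcq, Prkcd and Grk3, kinases of this signalling, overlapped between the groups (-0.04, -0.18 and -0.10). Of 3 genes for acetylcholine synthesis, breakdown and transport that were tested, Slc44a1, a choline transporter, had a difference of 0.36 and an unadjusted p under 0.05, which none of the 3 had without M3 replicate 3. Heat shock proteins had a median of 0.19, with 5 of 19 higher and 0 lower at an unadjusted p under 0.05 (8.78% and 5.53% of all genes), and 0.23 without M3 replicate 3, with 8 higher. Immediate early genes had a median of 0.18, with 1 of 16 higher and 1 lower, and medians of 0.15 without M3 replicate 3 and -0.04 without M5 replicate 3, which turned its sign.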

How the data were processed

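Testis RNA of 15 samples was sequenced, and each sample was placed by its title. Titles name testis while the extraction text speaks of sperm. Per the study's methods, reads of poly(A) RNA were aligned with SOAPaligner to a gene reference. The authors deposited FPKM values to 2 decimals, 1 column per library, which their methods call RPKM. The build named in the submitters' processing notes is mm10, and names and coordinates came from RefSeq GRCm38.p6 (21143 of 23510 IDs matched, 2208 are BGI_novel). Counts were not used here.

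Values were analysed as log2(FPKM + 1), which understates the differences of low genes, for genes averaging 1 FPKM or more. limma 3.58.1 (lmFit, eBayes with trend) in R 4.3.3 was fitted to the 6 libraries without covariates, since the study's own test needs counts, and tested on simulated data. Genes were called at a Benjamini-Hochberg adjusted p under 0.05. Receptors below the filter were compared by exact permutation. Deviations of same-numbered M5 and M3 libraries correlated within the range of differently numbered ones. Genes were named by rule: the calls, the 10 with the lowest p, and the 10 largest differences each way among non-overlapping genes in each fit (called genes in that without M3 replicate 3), list members called in either fit, up to 4 IDs without a symbol, and as list examples up to 4 members of highest level. Others are marked as picked with values seen. A few list examples are not reported here. The comparison, the 33 gene lists and the tests were chosen with earlier results of these data known. Python 3.11.15 and scipy were also used.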

Additional observations from a re-analysis of the deposited data

How the results depend on the processing

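With all 6 libraries, limma called 2 genes, 3 with a pseudocount of 0.1, 3 with quantile normalization and 2 with all groups in one fit. The count was 4 after median centring (3 higher in M5), 4 without trend (3 higher), 6 with the GC trend removed (3 higher), 1 with a mean FPKM of 5 or more, 1 without the filter (Cd5l then had an adjusted p of 0.0558) and 0 at the study's threshold. That threshold was an adjusted p of 0.001 and a log2 ratio of 1 either way. The study set it for a count test, and here it was put on limma and log2(FPKM + 1), so the counts are not alike. Leaving out 1 library gave 0 to 188 calls, 188 without M3 replicate 3. It was 0 without M3 replicate 2, M5 replicate 2 or M5 replicate 3, where 1153, 1508 and 1538 genes had an unadjusted p under 0.05. With the replicate number as a block the count was 0, also with the GC trend removed (2049 and 2072 genes at an unadjusted p under 0.05). Deviations of same-numbered libraries from their group means correlated at 0.126, -0.152 and 0.028, within the -0.202 to 0.185 of differently numbered ones. Deviations within a group are tied to its mean, so these correlations cannot tell whether same-numbered libraries shared a batch. Without M3 replicate 3 the 188 calls became 1669 with all groups in one fit, 102 without the filter, 62 after median centring, 50 without trend, 37 with the GC trend removed and 5 at the study's threshold, and 20 (without M5 replicate 2) to 302 (without M5 replicate 3) when an M5 library was left out. The cause was not tested. No named gene of the 70 reversed under any alternative, and among 1091 comparisons of these genes 12 lost and 67 gained a call. Only Cd5l (15 comparisons) and BGI_novel_G001799 (14) had a call to lose, and each lost 6. Most gains came in the fit without M3 replicate 3. Many of these genes were named from that fit, so such gains were built in. Depth is unknown, and the receptor transcripts lie near the 2 decimals of the table.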
